A study of Mus musculus with 10 samples.

Results

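The genes described here are 50 genes of the cell cycle and of DNA replication from a list of symbols, out of 55020 lines in the expression table. Where a symbol stood on several lines, the line with the highest mean over the 10 tumours was taken. That applied to Kif11, whose second line was listed at 0 in all 10 tumours. The 50 genes fall into 8 groups by role. There are 5 G1 cyclins and kinases, 4 cell cycle transcription factors, 10 genes of origin licensing and the replicative helicase, and 7 of polymerases, sliding clamp and nucleotide supply. A further 8 are mitotic cyclins and kinases, 5 belong to the spindle checkpoint and anaphase promotion, 6 to the centromere and chromosome, and 5 to spindle motors and assembly.

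RNA was measured by poly-A sequencing in 10 tumours grown from Hepa1-6, a mouse hepatoma cell line that was injected under the skin of C57/BL6 mice and left for 4 weeks. The vehicle group holds 5 tumours (replicates 1, 2, 3, 5 and 6) and the GSK343 group 5 (replicates 1 to 5), described as biological replicates. GSK343 inhibits EZH2, the histone methyltransferase of Polycomb repressive complex 2. The labels also mention a control antibody and Anti-AsilaoGM1, but not which tumour had which, so an effect of antibody on any value below cannot be told apart from treatment. The sources used here give no ages or doses. Vehicle tumours were identified by elimination, since their titles carry only the letter C.

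A dividing cell first licenses its replication origins with the MCM helicase and then copies its DNA with polymerases clamped by PCNA. It enters mitosis when CDK1 bound to cyclins A and B becomes active, and leaves it when the anaphase-promoting complex destroys those cyclins. Genes of the early steps are known targets of E2F factors, while many mitotic genes are known targets of the MuvB complex with B-MYB and FOXM1, which acts through a promoter element called CHR, often beside CCAAT boxes bound by NF-Y. Liver cells rarely divide in the adult, and proliferation genes are commonly high in hepatocellular carcinoma.

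These promoter elements were looked for in RefSeq sequence of the GRCm38.p6 build, in a window of 300 bases that runs from 250 bases before each annotated start through the first 50 transcribed bases. The table matched 39 of the 50 genes, with 41 promoters. It held no entry for Tpx2, Foxm1, Kif20a, Pole, Aurkb, Ccnd1, Ccna2, Mcm4, Gins2, Cdc25c and Ccne2. The letters searched, on both strands, were TTTCCCGC, TTTGGCGC, TTTCGCGC and TTTGCCGC for the E2F type, TTTGAA for CHR and CCAAT for NF-Y. Hits of different motifs overlapped 1 time among these promoters. The following 5 promoters show the contrast between an S-phase gene (Mcm6), mitotic genes (Ube2c and Mki67), a gene holding all 3 elements (Cdk1) and a G1 kinase with none (Cdk4). They were picked after the search. Each runs 5′ to 3′ in the direction of transcription over the 250 bases before the start, and capitals mark letters that match a motif on either strand.
Mcm6: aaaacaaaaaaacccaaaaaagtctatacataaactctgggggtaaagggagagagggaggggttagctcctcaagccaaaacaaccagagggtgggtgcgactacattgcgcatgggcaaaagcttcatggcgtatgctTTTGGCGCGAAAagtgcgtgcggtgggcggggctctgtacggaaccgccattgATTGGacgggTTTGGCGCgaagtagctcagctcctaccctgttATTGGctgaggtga
Ube2c: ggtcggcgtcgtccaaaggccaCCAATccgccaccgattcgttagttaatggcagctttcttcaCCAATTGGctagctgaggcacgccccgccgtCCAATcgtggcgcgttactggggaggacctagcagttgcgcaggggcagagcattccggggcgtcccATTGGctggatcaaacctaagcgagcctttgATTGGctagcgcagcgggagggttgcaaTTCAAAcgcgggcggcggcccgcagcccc
Mki67: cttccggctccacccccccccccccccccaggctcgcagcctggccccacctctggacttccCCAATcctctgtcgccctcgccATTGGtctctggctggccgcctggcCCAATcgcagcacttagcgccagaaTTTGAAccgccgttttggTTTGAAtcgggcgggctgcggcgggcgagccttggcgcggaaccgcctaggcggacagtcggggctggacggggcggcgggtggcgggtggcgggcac
Cdk1: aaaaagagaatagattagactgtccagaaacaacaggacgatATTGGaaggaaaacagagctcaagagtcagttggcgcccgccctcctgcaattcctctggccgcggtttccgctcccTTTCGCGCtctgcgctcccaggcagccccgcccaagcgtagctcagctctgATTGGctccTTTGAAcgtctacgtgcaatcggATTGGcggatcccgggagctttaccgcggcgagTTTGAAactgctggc
Cdk4: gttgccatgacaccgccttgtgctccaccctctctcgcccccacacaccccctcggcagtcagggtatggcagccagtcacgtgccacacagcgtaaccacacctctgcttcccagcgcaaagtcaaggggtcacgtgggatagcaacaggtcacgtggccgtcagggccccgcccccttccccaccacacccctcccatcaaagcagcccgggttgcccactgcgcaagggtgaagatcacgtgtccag

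The Mcm6 sequence lies at chr1:128359706-128359955 on the minus strand and holds 3 E2F-type matches, 2 of them overlapping on opposite strands, and 2 CCAAT matches. The Ube2c sequence, at chr2:164769679-164769928 on the plus strand, holds 6 CCAAT matches, 2 of which overlap on opposite strands, and 1 CHR match. The Mki67 sequence, at chr7:135716380-135716629 on the minus strand, holds 2 CHR and 3 CCAAT matches. The Cdk1 sequence, at chr10:69352913-69353162 on the minus strand, holds 1 E2F-type, 2 CHR and 3 CCAAT matches. The Cdk4 sequence, at chr10:127063285-127063534 on the plus strand, holds no match in these letters.

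Over the genes that replicate DNA (the S-phase class, which joins licensing, helicase, polymerases, clamp and nucleotide supply), 7 of 15 promoters (46.7%) held an E2F-type match, against 2.26% of all 32851 promoters in the table. Those 7 were promoters of Mcm3, Mcm5, Mcm6, Mcm7, Cdt1, Cdc6 and Pola1, so nearly all belonged to licensing and helicase genes. Among polymerases, clamp and nucleotide supply, Pola1 alone held a match, and Pcna, Rrm1, Rrm2, Tyms and Rfc4 held none. Only 2 of the 15 S-phase promoters (13.3%) held a CHR match. Over the mitotic class (mitotic cyclins and kinases, checkpoint, centromere and spindle genes) the order was the opposite. There 14 of 19 promoters (73.7%) held a CHR match, against 17.9% of all promoters, and 1 of 19 (5.26%), that of Cdk1, held an E2F-type match. CCAAT was found in 11 of 15 S-phase promoters (73.3%), 17 of 19 mitotic promoters (89.5%) and 37.4% of all promoters. A match describes letters in the window and is not evidence that a factor was bound in these tumours.

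**Figure D1:**
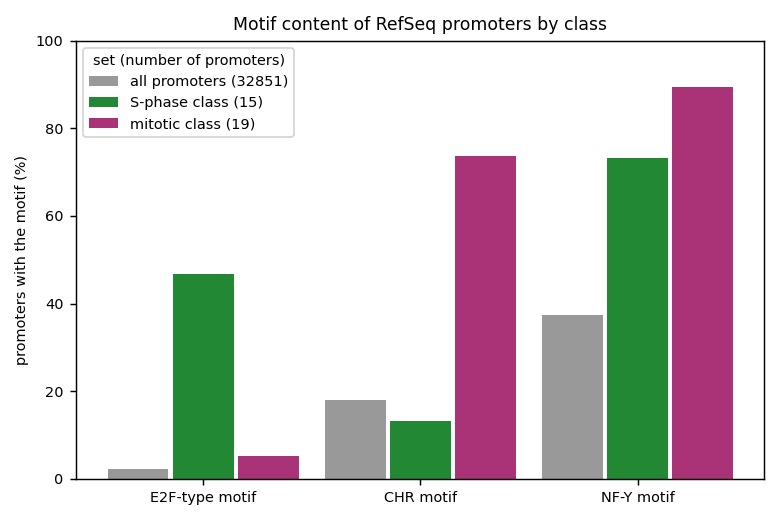
Bars give the percent of 300-base promoters holding at least 1 match to the E2F-type, CHR or CCAAT letters, for the S-phase class (15 promoters), the mitotic class (19) and all 32851 RefSeq promoters. The E2F-type share is highest in the S-phase class (46.7%) and the CHR share in the mitotic class (73.7%).

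Values are in FPKM, a unit scaled by exon length and library size, so levels can be set side by side between genes. Their sum lay between 574547 and 623397 per tumour, and depth is unknown, since no counts were used. The hepatoma marker Afp, the fetal liver protein alpha-fetoprotein, measured 1954 to 2424 FPKM in vehicle and 1465 to 2154 in GSK343 tumours. Host cells were present too. Ptprc, the pan-leukocyte phosphatase CD45, measured 1.74 to 7.22 FPKM in vehicle and 5.60 to 31.0 in GSK343 tumours. Ezh2, the target of the drug, measured 55.2 ± 7.65 and 44.8 ± 6.60 FPKM (SD, n = 5 per group, limma adjusted p = 0.233). Its transcript level does not show whether the enzyme was inhibited.

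Groups were compared by limma on log2(FPKM + 1) over 14496 lines, those that averaged 1 FPKM or more across tumours, and a line was called at a Benjamini-Hochberg adjusted p under 0.05. On this scale the change of a weakly expressed gene comes out too small. All 50 genes passed that filter, and none was listed at 0 in any tumour. Their means over the 10 tumours ran from 1.19 FPKM for E2f2 to 231.6 for Cdk4, with a median of 21.5. The highest were Cdk4, Ccnd1, Top2a, Pcna and Ube2c, in that order.

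None of the 50 genes differed between GSK343 and vehicle tumours past the threshold, in limma (smallest adjusted p 0.191). Of all lines, 0.0828% were called, and 0.0138% as lower. At an unadjusted p under 0.05, 4 genes (Ube2c, Cdk4, Birc5 and Aurka) were lower after GSK343 and 0 were higher, where 17.6% of all lines passed in either direction and 6.86% in the lower. With 1 tumour left out that count ran from 3 to 8, with 8 genes without vehicle replicate 1 and 7 without vehicle replicate 2 or GSK343 replicate 2. The groups did not overlap for 1 gene, Ube2c, where 2.62% of all lines had no overlap, 1.20% with every GSK343 tumour lower. The log2 difference (GSK343 minus vehicle) was below 0 for 37 genes and above 0 for 13, where 52.4% of all lines were below 0. Its median over the 50 genes was -0.07, with a range of -0.71 to 0.20, and its median over all lines was -0.01. The number below 0 was 36 with median-of-ratios scaling and 40 with quantile normalization. The intervals were narrow for most. In 44 of the 50 genes the 95% interval lay within 0.5 of 0 on the log2 scale, and in 48 within 1.

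**Figure D2:**
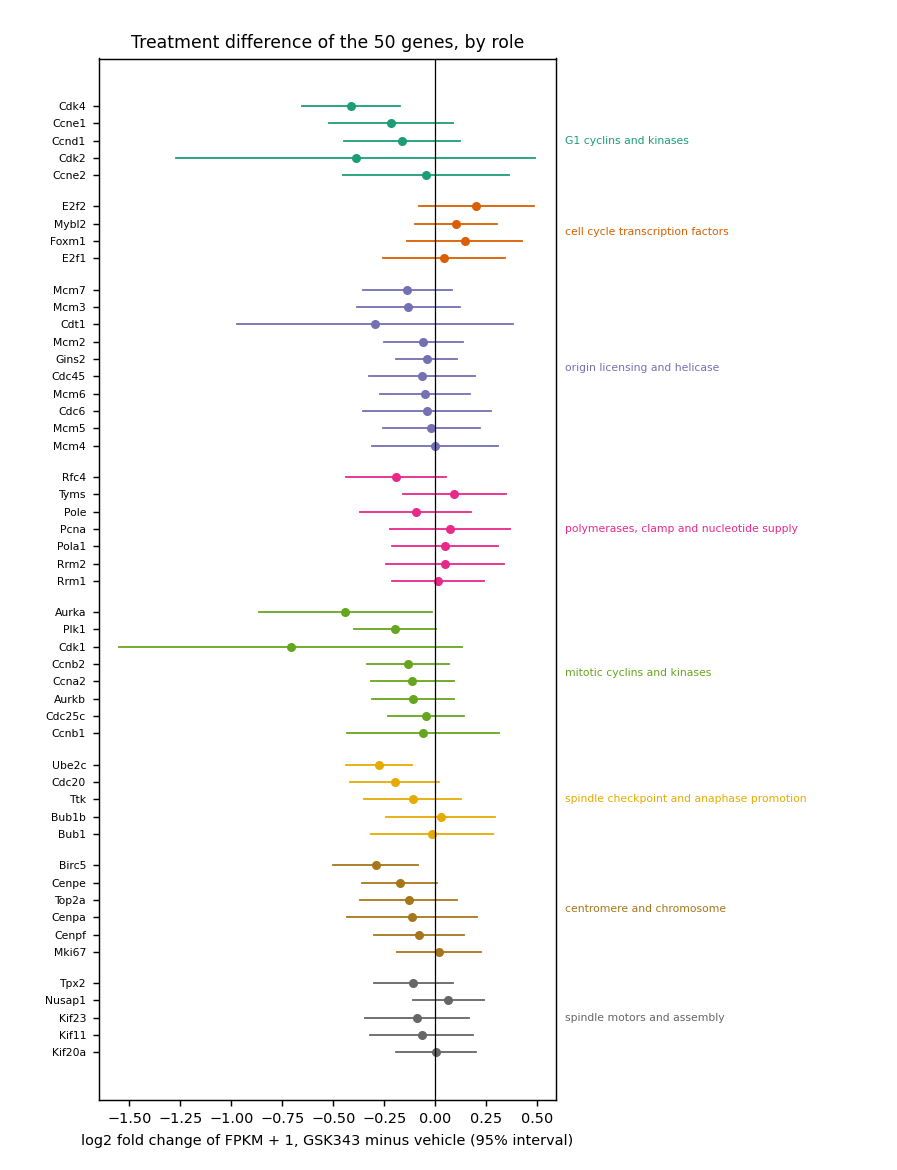
Points give the log2 difference (GSK343 minus vehicle, on log2(FPKM + 1)) of each of the 50 genes, ordered within their role groups, with 95% limma intervals as lines (5 tumours per group). The intervals of 4 genes exclude 0, and those of Cdk1, Cdk2 and Cdt1 are the widest.

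In the sentences that follow, the values of a gene are in FPKM and in the order vehicle replicates 1, 2, 3, 5 and 6, then GSK343 replicates 1 to 5. Means carry the SD over 5 tumours, and coordinates are those of the table (mm10).

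The 5 G1 cyclins and kinases, which drive a cell out of G1, all had a log2 difference below 0, with a median of -0.22, and none was called. Cdk4, the kinase that cyclin D1 activates to phosphorylate RB (chromosome 10, 127063534 to 127067920), was the most abundant of the 50. It measured 269, 254, 215, 293 and 292 in vehicle and 213, 217, 164, 213 and 186 in GSK343 tumours. Vehicle replicate 3 was the lowest of its group, and GSK343 replicate 2 alone lay above it, so the groups overlapped by that pair. The means were 264.6 ± 32.3 and 198.5 ± 22.9, a log2 difference of -0.41 (SE 0.109, 95% interval -0.65 to -0.17, limma adjusted p = 0.191). Cdk4 shares a stretch at its end with Tspan31 (50.4 FPKM, opposite strand). Whether reads of the pair were kept apart there is unknown, because the strand setting of the counting is not stated. Cyclin D1 itself (Ccnd1) differed by -0.16, cyclin E1 (Ccne1) by -0.22 and cyclin E2 (Ccne2) by -0.04, all without passing either threshold. Cdk2, the partner of cyclin E, differed by -0.39, with a 95% interval of -1.27 to 0.49. Leaving out vehicle replicate 5 moved that value to -0.64. Leaving out GSK343 replicate 3 gave -0.17, leaving out GSK343 replicate 5 gave -0.18, and leaving out both gave 0.18.

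The 4 transcription factors all lay above 0, with a median of 0.12 and no p under 0.05. Foxm1, an activator of mitotic genes, measured 6.30, 7.42, 9.02, 7.69 and 7.01 in vehicle and 8.81, 8.85, 7.91, 6.19 and 10.4 in GSK343 tumours. The groups overlapped widely, since GSK343 replicate 4 was the lowest of the 10 and GSK343 replicate 5 the highest (log2 difference 0.14, limma adjusted p = 0.577). E2f2, an E2F-family activator (chromosome 4, 136172394 to 136196057), was the least abundant of the 50 and measured 0.736, 1.49, 1.35, 0.820 and 0.831 against 1.26, 1.20, 1.66, 1.09 and 1.47. Vehicle replicates 2 and 3 lay within the GSK343 range and the other 3 below it (means 1.05 ± 0.350 and 1.34 ± 0.227, log2 difference 0.20, 95% interval -0.08 to 0.48, limma adjusted p = 0.432). Mybl2, which encodes B-MYB, differed by 0.10, and E2f1 by 0.04.

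The 10 licensing and helicase genes all had a log2 difference below 0, but small ones, with a median of -0.05. None had a p under 0.05. Mcm6, a subunit of the MCM ring (chromosome 1, 128331590 to 128359664), measured 51.5, 63.6, 70.3, 69.9 and 67.5 in vehicle and 64.9, 71.1, 56.5, 57.2 and 60.9 in GSK343 tumours. Vehicle replicate 1 was the lowest and GSK343 replicate 2 the highest of the 10, so the groups overlapped widely (64.6 ± 7.77 and 62.1 ± 6.05, log2 difference -0.05, 95% interval -0.27 to 0.17, limma adjusted p = 0.818). Mcm7, another subunit, measured 55.3, 60.8, 62.4, 73.6 and 57.4 against 58.1, 65.2, 50.7, 57.9 and 49.1. Its highest tumour was vehicle replicate 5, and the groups overlapped (log2 difference -0.14, limma adjusted p = 0.491). The other MCM subunits lay between -0.13 (Mcm3) and -0.0014 (Mcm4). The helicase partners Cdc45 and Gins2 and the MCM loader Cdc6 differed by -0.06, -0.04 and -0.04. Cdt1, which loads MCM together with Cdc6, differed by -0.30, with a wide 95% interval of -0.97 to 0.38. That value ran from -0.55 without vehicle replicate 2 to -0.13 without GSK343 replicate 5, and was 0.41 and 0.26 with the pan-leukocyte or fibroblast score (the mean of a marker list) in the model.

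Of the 7 genes of polymerases, clamp and nucleotide supply, 5 lay above 0 and 2 below, with a median of 0.05. Pcna, the sliding clamp, was the highest of them and measured 66.1, 118, 96.1, 98.2 and 101 in vehicle and 98.3, 95.5, 103, 91.7 and 108 in GSK343 tumours. The vehicle group held both the lowest tumour (replicate 1) and the highest (replicate 2), and every GSK343 value lay between them (96.0 ± 18.8 and 99.4 ± 6.56, log2 difference 0.07, 95% interval -0.22 to 0.37, limma adjusted p = 0.802). Rfc4, a subunit of the clamp loader, had the smallest p of the group and measured 27.8, 23.8, 27.5, 34.4 and 34.7 against 23.7, 29.6, 24.0, 25.9 and 24.9. Vehicle replicates 5 and 6 were the highest of the 10, while vehicle replicate 2 lay among the lowest (log2 difference -0.19, limma adjusted p = 0.387). The ribonucleotide reductase subunits Rrm1 and Rrm2 differed by 0.02 and 0.05, thymidylate synthase (Tyms) by 0.09, and the polymerase subunits Pola1 and Pole by 0.05 and -0.10.

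**Figure D3:**
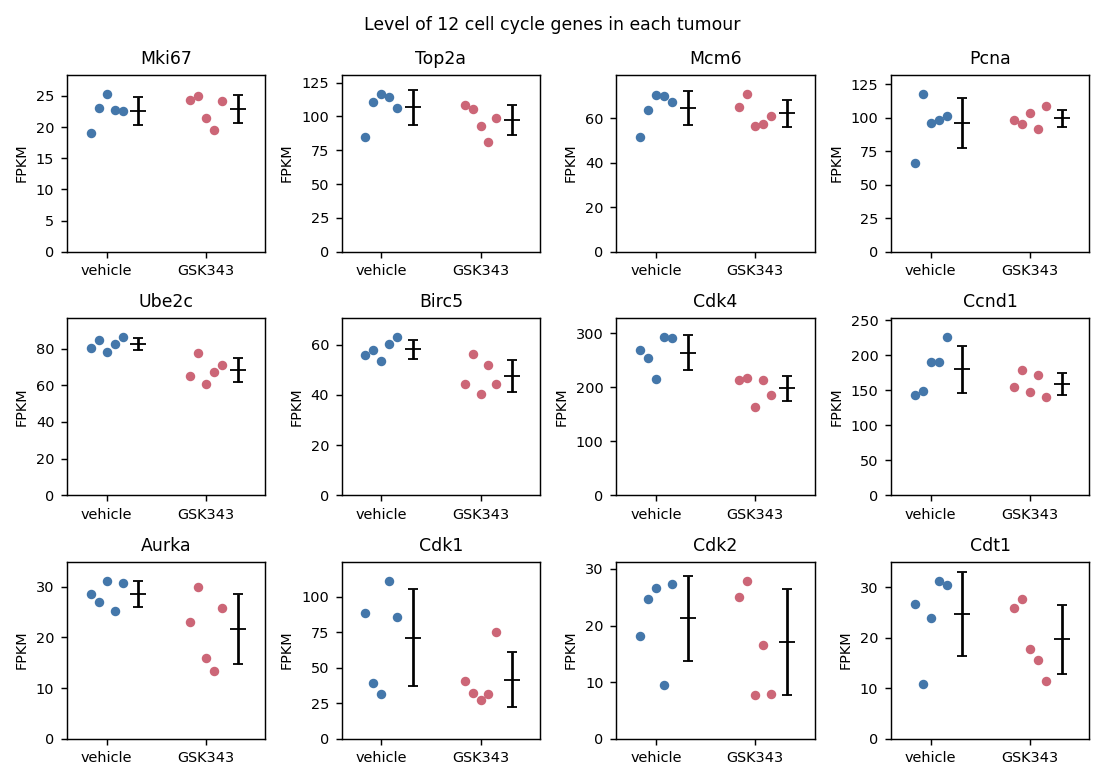
Each panel shows 1 gene on its own linear axis in FPKM, with 1 point per tumour (vehicle and GSK343, 5 each) and the group mean with its SD. The groups are apart for Ube2c and overlap in every other gene plotted.

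All 8 mitotic cyclins and kinases had a log2 difference below 0, with a median of -0.12, and 1 had a p under 0.05. Cdk1, the kinase that starts mitosis (chromosome 10, 69335146 to 69352938), had the largest difference of the 50 and also one of the largest spreads. It measured 88.5, 39.2, 31.3, 111 and 85.8 in vehicle and 40.9, 32.5, 27.3, 31.4 and 75.0 in GSK343 tumours. Vehicle replicates 2 and 3 lay among the low GSK343 values, and GSK343 replicate 5 lay near the high vehicle values (71.3 ± 34.4 and 41.4 ± 19.4, log2 difference -0.71, SE 0.380, 95% interval -1.55 to 0.13, limma adjusted p = 0.36). With 1 tumour left out the difference ran from -0.96 to -0.51. Aurka, the spindle pole kinase Aurora A (chromosome 2, 172356190 to 172370535), measured 28.5, 27.0, 31.2, 25.3 and 30.7 against 22.9, 30.0, 15.9, 13.4 and 25.7. GSK343 replicates 3 and 4 were far below every vehicle tumour, and GSK343 replicates 2 and 5 within the vehicle range (28.5 ± 2.48 and 21.6 ± 6.88, log2 difference -0.44, 95% interval -0.87 to -0.01, limma adjusted p = 0.273). Plk1, a kinase needed at several steps of mitosis, differed by -0.20 and the cyclins Ccna2, Ccnb1 and Ccnb2 by -0.11, -0.06 and -0.13. Aurkb, the kinase of the chromosomal passenger complex, differed by -0.11 and Cdc25c, a phosphatase that activates CDK1, by -0.04. None of these had a p under 0.05.

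Ube2c, the ubiquitin-conjugating enzyme that works with the anaphase-promoting complex (chromosome 2, 164769898 to 164778822), had the smallest p of the 50. It measured 80.4, 85.0, 78.5, 82.4 and 86.4 in vehicle and 64.9, 77.4, 60.6, 67.1 and 71.3 in GSK343 tumours. Every GSK343 tumour lay below every vehicle tumour, with the closest pair at 77.4 (GSK343 replicate 2) and 78.5 (vehicle replicate 3). The means were 82.5 ± 3.25 and 68.2 ± 6.43, a log2 difference of -0.27 (SE 0.0725, 95% interval -0.44 to -0.11, limma adjusted p = 0.191). Ube2c overlaps Tnnc2, a troponin of fast muscle, which measured 6.91 ± 4.82 FPKM in vehicle and 26.4 ± 22.7 in GSK343 tumours. Whether reads of the pair were kept apart over the shared stretch is unknown, since no strand setting is stated. Of the other 4 genes of this group, Cdc20, the activator of the anaphase-promoting complex, differed by -0.20, and the checkpoint kinases Ttk, Bub1 and Bub1b (BUBR1) by -0.11, -0.02 and 0.03, none with a p under 0.05.

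Among the 6 centromere and chromosome genes, 5 lay below 0 and the median was -0.12. Birc5, which encodes survivin of the chromosomal passenger complex (chromosome 11, 117849251 to 117855743), measured 55.9, 57.9, 53.4, 60.5 and 63.1 in vehicle and 44.6, 56.5, 40.6, 52.1 and 44.4 in GSK343 tumours. Only GSK343 replicate 2 lay within the vehicle range (58.2 ± 3.79 and 47.6 ± 6.50, log2 difference -0.29, 95% interval -0.50 to -0.08, limma adjusted p = 0.202). Top2a, the topoisomerase that untangles sister chromosomes, measured 84.8, 111, 117, 114 and 106 against 108, 106, 92.6, 81.1 and 98.5. Vehicle replicate 1 and GSK343 replicate 4 were both low, and the groups overlapped (log2 difference -0.13, limma adjusted p = 0.55). Mki67, which encodes the proliferation marker Ki-67 (chromosome 7, 135689784 to 135716361), is given because of its common use and was chosen after its values were seen. It measured 19, 23.1, 25.4, 22.7 and 22.6 in vehicle and 24.3, 24.9, 21.5, 19.5 and 24.3 in GSK343 tumours. Both groups covered nearly the same range (22.6 ± 2.30 and 22.9 ± 2.30), and the log2 difference was 0.02 (95% interval -0.19 to 0.22, limma adjusted p = 0.931). The kinetochore proteins Cenpe, Cenpa and Cenpf differed by -0.17, -0.11 and -0.08.

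The 5 spindle motors and assembly factors were the least spread of the mitotic groups, with log2 differences between -0.11 and 0.06 and a median of -0.07. Tpx2, which activates Aurora A on spindle microtubules, measured 23.9, 27.3, 30.0, 28.6 and 27.6 in vehicle and 27.2, 28.8, 22.1, 23.8 and 25.6 in GSK343 tumours. Its groups overlapped (27.5 ± 2.26 and 25.5 ± 2.66, log2 difference -0.11, limma adjusted p = 0.545). The motors Kif11, Kif23 and Kif20a differed by -0.07, -0.09 and 0.0027, and the microtubule binder Nusap1 by 0.06. None had a p under 0.05.

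S-phase and mitotic genes were then set against each other. Of the 17 S-phase genes, 12 had a log2 difference below 0, the median was -0.04 and 0 had a p under 0.05 in limma. Of the 24 mitotic genes, 20 were below 0, the median was -0.11 and 3 (Ube2c, Birc5 and Aurka) had a p under 0.05. Of all lines, 52.4% were below 0 and 6.86% were lower with a p under 0.05. The gap between the classes rested in part on vehicle replicate 1. Without it 16 of 17 S-phase and 23 of 24 mitotic genes were below 0, and the medians were -0.13 and -0.15. With each other tumour left out the S-phase median stayed between -0.06 and -0.02, and without GSK343 replicates 3 and 5 together it was 0.00011.

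The mean log2(FPKM + 1) of a class gives 1 level per tumour. For the S-phase class it was 4.11, 4.30, 4.47, 4.53 and 4.46 in vehicle and 4.42, 4.47, 4.23, 4.24 and 4.26 in GSK343 tumours, with means of 4.37 ± 0.170 and 4.32 ± 0.113. Vehicle replicate 1 was the lowest of the 10, and the groups overlapped throughout. For the mitotic class it was 4.31, 4.36, 4.48, 4.50 and 4.48 against 4.36, 4.44, 4.15, 4.14 and 4.34, with means of 4.43 ± 0.0867 and 4.29 ± 0.136. GSK343 replicates 3 and 4 lay below every vehicle tumour, and GSK343 replicates 1, 2 and 5 within the vehicle range. The S-phase level minus the mitotic level was -0.20, -0.06, -0.01, 0.03 and -0.02 in vehicle and 0.06, 0.03, 0.09, 0.10 and -0.08 in GSK343 tumours. The group means of this difference were -0.05 ± 0.0880 and 0.04 ± 0.0722, 0.09 apart. In 3 GSK343 tumours (replicates 1, 3 and 4) it was above every vehicle tumour, and GSK343 replicate 5 lay among the low vehicle values, so the groups overlapped. No test was made on these class levels, since the genes were chosen with results of these data known.

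**Figure D4:**
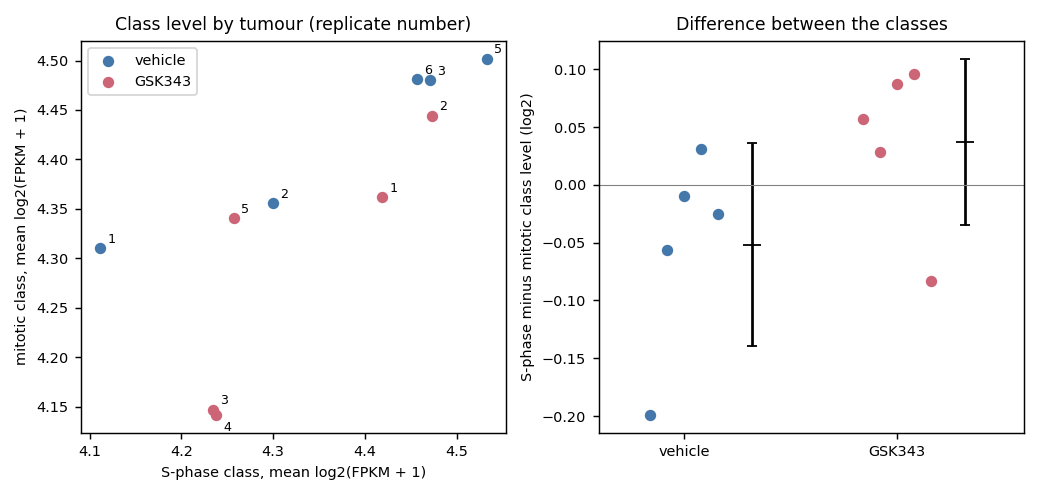
On the left, each of the 10 tumours (numbered by replicate) is placed by the mean log2(FPKM + 1) of the S-phase class (17 genes, horizontal) and of the mitotic class (24 genes, vertical), and on the right is the S-phase level minus the mitotic level with group means and SD. Vehicle replicate 1 has the lowest S-phase level (4.11), and GSK343 replicates 3 and 4 have the lowest mitotic levels (4.15 and 4.14).

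The genes tended to be low or high in the same tumours of a group. Vehicle replicate 1 was the lowest vehicle tumour for 34 of the 50 genes (13 of 17 S-phase and 14 of 24 mitotic genes), where it was lowest for 31.3% of all lines. GSK343 replicate 2 was the highest GSK343 tumour for 29 of the 50, against 25.9% of all lines. The lowest GSK343 tumour was replicate 3 for 21 genes and replicate 4 for 19, against 25.2% and 21.2% of all lines. The same tumour, vehicle replicate 1, had a mean level of liver and hepatoma markers of 6.26 on the log2 scale, where the other vehicle tumours had 5.54 to 5.66. The part of those markers in the low S-phase level was not tested. Without vehicle replicate 1, 45 of the 50 genes had a log2 difference below 0, and none was called.

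Spread within groups differed widely among the genes. The SD of log2(FPKM + 1) within groups had a median of 0.184 over the 50, the same as over all lines (0.184), and ran from 0.0829 for Gins2 to 0.72 for Cdk2. It was above 0.45, a limit set after the values were seen, in 3 genes, Cdk2 (0.72), Cdk1 (0.687) and Cdt1 (0.55), and in 10.5% of all lines. The next highest was Aurka at 0.339. Cdk2 (chromosome 10, 128697939 to 128705031) measured 18.1, 24.8, 26.7, 9.51 and 27.3 in vehicle and 25.1, 27.9, 7.76, 16.6 and 7.97 in GSK343 tumours. Vehicle replicate 5 and GSK343 replicates 3 and 5 were the 3 low tumours, at less than 10 FPKM. Cdt1 (chromosome 8, 122568015 to 122573554) measured 26.7, 10.8, 24.0, 31.3 and 30.5 against 25.9, 27.6, 17.7, 15.7 and 11.5. Its low tumours were vehicle replicate 2 and GSK343 replicate 5. The low tumours of Cdk1 were vehicle replicates 2 and 3 and GSK343 replicates 1 to 4, and mostly not those of Cdk2. Over the 10 tumours the highest value was 4.07 times the lowest for Cdk1, 3.60 times for Cdk2, 2.90 times for Cdt1 and 1.19 times for Gins2.

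Other genes of the same pathways were read from lists that do not hold the 50. Of 36 further S-phase genes, all tested, 25 were below 0, the median was -0.05, and 0 were called or had a p under 0.05. Their smallest limma adjusted p was that of Tipin, a replication fork protein, at 0.32 (25.0 ± 3.03 against 21.9 ± 1.41 FPKM). Of 43 further mitotic genes, 41 were in the table and tested. There 35 were below 0, the median was -0.10, and 0 were called, while 5 had a p under 0.05 and 2 did not overlap between the groups, all of them lower after GSK343, where 6.86% and 1.20% of all lines were so. Ckap2, a microtubule-stabilizing protein, measured 17.3 ± 2.13 and 12.9 ± 1.67 FPKM (limma adjusted p = 0.191). Ccnf, cyclin F of an SCF ubiquitin ligase, measured 7.37 ± 0.696 and 5.54 ± 0.815 (limma adjusted p = 0.191), and Nek2, a centrosome kinase, 11.4 ± 0.409 and 9.36 ± 0.977 (limma adjusted p = 0.192).

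Among 17 genes of the RB family, the other E2F factors and MuvB, 11 were below 0, with a median of -0.07 and 0 called or with a p under 0.05. Rb1, the brake on E2F that CDK4 releases, measured 3.52 ± 0.694 and 4.52 ± 0.830 FPKM (limma adjusted p = 0.31). Of the 8 CDK inhibitors, 7 were tested, 6 were below 0, with a median of -0.08, and 0 were called. Cdkn1a, which encodes p21, measured 126.7 ± 11.4 and 104.8 ± 6.09 FPKM, with no overlap between the groups (limma adjusted p = 0.191). Cdkn3, a phosphatase that acts on CDK1 and CDK2, measured 8.89 ± 1.07 and 7.43 ± 0.681 (limma adjusted p = 0.245). Both inhibitors were thus lower after GSK343 at an unadjusted p under 0.05, without passing the adjusted one. They are 2 of 7 tested, 1 of them with no overlap, where 6.86% and 1.20% of all lines were so.

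The tumours also differed in host cell content. The mean log2(FPKM + 1) of 16 pan-leukocyte markers was 4.45, 5.63, 5.18, 4.60 and 4.46 in vehicle and 5.67, 5.32, 5.97, 5.25 and 5.98 in GSK343 tumours (4.86 ± 0.524 and 5.64 ± 0.346). Of these markers 15 of 16 were above 0 in the GSK343 minus vehicle difference, 13 with a p under 0.05 and 0 called, where 17.6% of all lines had such a p in either direction. The groups overlapped through vehicle replicate 2, the vehicle tumour with the highest score. Fibroblast marker scores were 5.24 ± 0.303 and 5.78 ± 0.398, and skeletal muscle scores 2.22 ± 1.17 and 3.74 ± 0.937. All 10 muscle markers were above 0, 9 of them with a p under 0.05 and 0 called. Of all 14496 lines, 1552 were higher at such a p, and 17.6% passed in either direction. The muscle actin Acta1 measured 0.617 to 37.7 FPKM in vehicle and 17.0 to 123.7 in GSK343 tumours, and the keratin Krt5 of skin 0.0868 to 14.9 and 0.228 to 3.88. Liver and hepatoma marker scores ran from 5.54 to 6.26 in vehicle and from 5.29 to 5.80 in GSK343 tumours. In whole tumours, the number of dividing cells, the RNA in each and the share of host RNA cannot be told apart.

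The relation of each gene to leukocyte content was fitted as a slope on the pan-leukocyte score, with treatment in the same limma model. Of the 50 genes, 1 had a slope past the threshold, E2f2 (0.42 log2 units per unit of score, limma adjusted p = 0.0227), where 7.68% of all lines were called, 5.96% with a positive and 1.72% with a negative slope. E2f2 was highest in tumours with high scores. GSK343 replicate 3, vehicle replicate 2 and GSK343 replicate 5, its 3 highest tumours, had scores of 5.97, 5.63 and 5.98, and vehicle replicate 1, its lowest, had 4.45. GSK343 replicate 1 did not follow this order. Its score was 5.67 and its E2f2 level 1.26 FPKM, below vehicle replicate 3 (1.35 FPKM at a score of 5.18). The call was lost when vehicle replicate 2 (limma adjusted p = 0.122), GSK343 replicate 3 (0.0519) or GSK343 replicate 4 (0.0509) was left out, while the slope stayed at 0.45, 0.41 and 0.43. With GSK343 replicate 4 left out Cdt1 was called instead. Without vehicle replicate 1, 3 genes were called, Ccnd1, Rfc4 and E2f2. With treatment left out of the model, 5 genes were called (Cdk4, Cdt1, Birc5, Rfc4 and E2f2), against 19.8% of all lines.

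The slopes of the 50 genes had a median of -0.01, with 23 above 0 and 27 below. They ran from -0.92 for Cdt1 (limma adjusted p = 0.0768) to 0.42 for E2f2. Slopes were thus about as often negative as positive, with 9 of 17 S-phase and 11 of 24 mitotic genes above 0. Over all 14496 lines 6453 slopes were above 0, with a median of -0.03, so this split was not particular to the 50 genes. With the score held in the model, the median treatment difference of the 50 was -0.08, and 39 were below 0 against 47.0% of all lines. In limma 0 were called and 1, Ube2c, had an unadjusted p under 0.05, against 0.0138% and 4.57% of all lines. The class medians were -0.05 for S-phase and -0.11 for mitotic genes, close to those without the score. Single genes did move. Cdt1 moved most, from -0.30 to 0.41, and Ccnd1 (-0.16 to 0.03), Rfc4 (-0.19 to 0.05) and Pcna (0.07 to -0.19) also turned direction. With the score their SEs were 0.305, 0.162, 0.114 and 0.149, in that order. None of them had a limma p under 0.05 with or without the score. Cdk4 went from -0.41 to -0.19, Birc5 from -0.29 to -0.13 and Cdk1 from -0.71 to -0.18, while Ube2c went from -0.27 to -0.23 and Aurka from -0.44 to -0.46. Of the further genes named above, Ckap2 went from -0.40 to -0.12, Cdkn1a from -0.27 to -0.12 and Tipin from -0.18 to -0.06. Ccnf went from -0.36 to -0.24, Nek2 from -0.27 to -0.22, Cdkn3 from -0.23 to -0.34 and Rb1 from 0.29 to -0.02. Among them Ckap2 alone had a called slope (-0.36, limma adjusted p = 0.0241), where 1.72% of all lines had a called negative slope. The 4 transcription factors, all above 0 without the score, had a median of -0.04 with it, and 3 of 4 were below 0. Whether host cells set the levels of these genes was not tested.

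**Figure D5:**
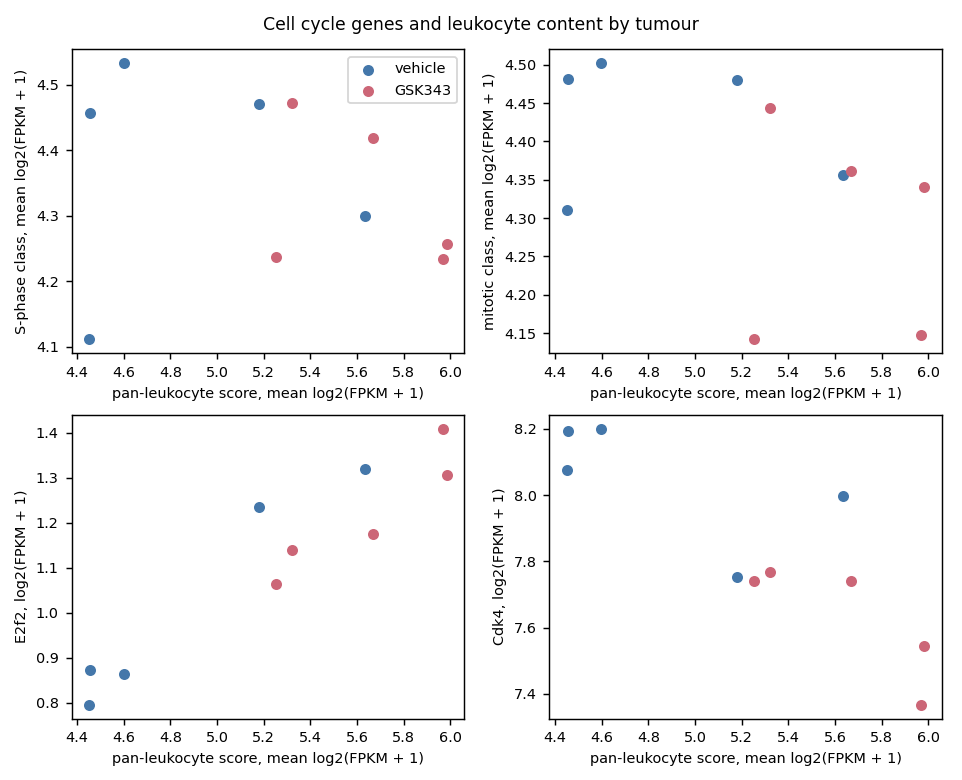
Each panel plots log2(FPKM + 1) of E2f2 or Cdk4, or the mean of the S-phase or mitotic class, in each of the 10 tumours (vertical axis) against the pan-leukocyte score of that tumour (horizontal axis, mean log2(FPKM + 1) of 16 markers). The 3 highest E2f2 values lie at scores of 5.63 to 5.98, but GSK343 replicate 1, at 5.67, is not among them. The vehicle tumours lie mostly at lower scores than the GSK343 tumours.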

How the data were processed

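Poly-A RNA of 10 tumours was sequenced. The authors' deposited table names no unit, and its values were taken as FPKM because of their size and sums. The submitters' processing notes list the build mm10 with StringTie 1.3.3b, HISAT2 2.1.0 and Trimmomatic 0.33. What options, annotation and strand setting were used is not given in the sources used here. Depth is unknown, so no counting interval is given, and precision comes from the spread between tumours. The table's other 10 columns are unnamed and empty.

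Here log2(FPKM + 1) was fitted with limma 3.58.1 (R 4.3.3, intensity trend, two-sided) on the 14496 lines averaging 1 FPKM or more, and Benjamini-Hochberg adjustment ran over all of them. The first fit had treatment alone. The second added the pan-leukocyte score, and its slope is the relation to leukocyte content. A score is the mean log2(FPKM + 1) of a marker list. The fits were also run on simulated data with independent normal noise for each line and tumour. That noise does not copy genes that move together within a tumour. No recovery rate is given here, so how often a real change would be missed is not stated.

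All 50 genes may be named, with values by tumour for the highest and the smallest-p gene of each role, and up to 3 smallest-p genes of each further list. Cdk2, Cdt1 and Mki67 were added after their values were seen. The genes and lists were chosen with earlier results of these data known, so no list was tested as a set and none is adjusted alone. GENCODE M21 supplied overlaps: at least 11 of the 50 genes overlap another gene of at least 1 FPKM on average. Overlaps were taken between whole gene spans, introns included, and whether reads over a shared stretch were kept apart is unknown. The overlaps include Rfc4 with Eif4a2 (70.1 FPKM) and Mcm7 with Cops6 (96.6 FPKM). Overlapping genes with no line under that name, such as Ufd1 over Cdc45, were not counted. Promoters came from RefSeq GRCm38.p6. Python 3.11.15, pandas 2.3.3 and matplotlib 3.10.9 were used.

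Alternatives were the pseudocount, the filter, scaling, tumour weights, the intensity trend, host scores, the replicate number as a block and each tumour left out.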

Additional observations from a re-analysis of the deposited data

Results flagged for a closer look

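In 6 of 122 sets of 5 tumours (4.92%, where chance gives about 5%), 1 tumour stood apart from the other 4 by Dixon's criterion. Ccne2 measured 4.08 FPKM in GSK343 replicate 4 and 5.92 to 6.21 in the other GSK343 tumours. E2f1 measured 11.2 FPKM in GSK343 replicate 2 and 6.29 to 7.64 in the others. Tyms measured 6.27 FPKM in vehicle replicate 1 and 8.26 to 8.65 in the other vehicle tumours. Cdk1 measured 75.0 FPKM in GSK343 replicate 5 and 27.3 to 40.9 in the others. The keratinocyte marker score was 2.56 in GSK343 replicate 5 and 0.46 to 0.97 in the others. The liver and hepatoma marker score was 6.26 in vehicle replicate 1 and 5.54 to 5.66 in the other vehicle tumours. No cause of these values was tested.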

How the results depend on the processing

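No gene of the 50 was called between treatments under any setting, with a smallest limma adjusted p between 0.0817 (without vehicle replicate 2) and 0.999. The number with an unadjusted p under 0.05, 4 as reported, was 1 with the pan-leukocyte score, 2 with the fibroblast score, 7 with median-of-ratios scaling and 8 with tumour weights. The number below 0, 37 as reported, ran from 30 (without GSK343 replicates 3 and 5) to 45 (without vehicle replicate 1). Under every setting, class medians and the S-phase minus mitotic difference moved by less than the within-group SD of the level concerned. For the S-phase class that SD (0.170 in vehicle, 0.113 in GSK343 tumours) exceeds the size of the median (-0.04). A change of sign would pass this limit, so staying within it does not show the medians to be stable. With each tumour left out, the S-phase median ran from -0.13 to -0.02 and the mitotic median from -0.15 to -0.07. The difference ran from 0.05 to 0.12. The number of leukocyte slopes called was 1 as reported, 5 without the treatment term, 0 to 3 with each tumour left out, and 0 with a filter at 5 FPKM (E2f2 then untested), quantile normalization, the replicate block, a fibroblast or macrophage score, without the 2 tumours farthest from the median score (vehicle replicates 1 and 6), and without GSK343 replicates 3 and 5. That last choice, made after seeing the data, drops the highest leukocyte scores. The cause of these changes was not tested.

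The sign of the treatment difference held in 22 of 50 genes and changed under some setting in 28, none larger than 0.39 as reported. With the pan-leukocyte score it became -0.088 for Mki67, 0.031 Ccne2, 0.034 Ccnd1, 0.073 Cdc25c, 0.41 Cdt1, -0.071 Bub1b, -0.041 Kif20a, 0.00065 Mcm4, -0.19 Pcna, -0.025 Rrm1, -0.021 Rrm2, 0.064 Gins2, 0.049 Rfc4, -0.13 E2f2, -0.042 Mybl2 and -0.044 Foxm1. With the fibroblast score it became -0.081 for Mki67, 0.057 Ccnd1, 0.021 Cdc25c, 0.26 Cdt1, 0.017 Bub1, -0.043 Bub1b, -0.046 Kif20a, 0.053 Mcm4, -0.087 Pcna, 0.056 Gins2, -0.018 E2f2 and -0.075 Foxm1. Median-of-ratios scaling gave 0.0077 for Mcm4, and quantile normalization -0.018 for Kif20a, -0.045 Pola1 and -0.021 E2f1. Tumour weights gave -0.044 for Kif20a, -0.047 Rrm1, -0.051 Rrm2 and -0.010 Pola1. Without GSK343 replicates 3 and 5 it was 0.18 for Cdk2, 0.069 Bub1, 0.0080 Cenpf, 0.066 Mcm4, 0.0093 Mcm5, 0.00011 Mcm6, -0.025 Rrm2, 0.013 Gins2 and 0.067 Pole. With each tumour left out it ran from -0.039 to 0.073 for Mki67, -0.043 to 0.098 Bub1b, -0.036 to 0.045 Kif20a, -0.054 to 0.15 Pcna, -0.075 to 0.064 Rrm1, -0.060 to 0.11 Rrm2, -0.024 to 0.10 Pola1, -0.082 to 0.10 E2f1, -0.16 to 0.061 Ccnb1, -0.14 to 0.024 Cdc45, -0.093 to 0.083 Bub1, -0.13 to 0.058 Mcm4, -0.10 to 0.042 Mcm5, -0.16 to 0.089 Ccne2 and -0.15 to 0.045 Cdc6.

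The labels do not say whether the replicate numbers pair tumours. Deviations of same-numbered tumours from their group means correlated at -0.11, -0.33, 0.03 and -0.19 (replicates 1, 2, 3 and 5). These values cannot settle it, since tumours with different numbers were not compared. A replicate block over these 8 tumours called 0 genes, and turned Ccnb1 to 0.13, Ccne2 to 0.19, Cdc6 to 0.067, Kif11 to 0.014, Kif20a to -6.6e-05 and Mcm4 to 0.060.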
